A study of Mus musculus with 16 samples.

Results

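The astrocyte libraries of mice in which Rack1 was conditionally deleted in microglia (CKO) were compared with those of wild-type mice (WT), neither group carrying the Alzheimer's disease (AD) model. These were 4 of the 16 libraries of the series, 2 in each group, taken by their cell type and genotype labels. The other astrocyte libraries, 2 from the AD model with the microglial deletion (AD CKO) and 2 from the AD model with intact Rack1 (AD WT), shared the normalisation and the fit, and the remaining 8 libraries were of microglia from the same 4 groups. The labels give neither the AD model, the Cre driver and the microglial cells it reaches, the age and sex of the mice, the way the astrocytes were isolated, nor whether both libraries of a group are from separate animals. The p-values below therefore measure only the spread between these libraries, which may be technical.

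Astrocytes clear glutamate and GABA from synapses, buffer potassium and water, make cholesterol for neurons and secrete proteins that shape synapses and the extracellular matrix. In mouse culture, interleukin 1 alpha, tumour necrosis factor and complement C1q from activated microglia push them into a reactive state, and type I interferon gives a further response. RACK1 is a scaffold protein that sits on the small part of the ribosome and gathers kinases. The comparison asked how the astrocyte transcriptome differed when RACK1 was removed from microglia in mice without the AD model.

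Rack1 itself (ENSMUSG00000020372, a protein-coding gene on the plus strand of mm10 chromosome 11, from 48800332 to 48806434) was at 102 and 95.7 CPM (reads scaled to a common library total) in the CKO astrocyte libraries, against 61.1 and 57.9 CPM in the WT astrocyte libraries. Both CKO values lay above both WT values, and the log2 fold change was 0.74 ± 0.06 (SE; adjusted p = 3.26e-10, edgeR's quasi-likelihood test with Benjamini-Hochberg adjustment over all genes, as for every adjusted p below). In the microglia libraries, where the deletion was made, Rack1 was at 40.4 and 42.0 CPM in CKO, against 98.1 and 95.2 CPM in WT. Levelling the trend with transcript length, described below, gave an astrocyte value of 1.03 with the longest and 0.39 with the principal transcript's length.

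The contrast was wide. Of 20116 genes tested over the 8 astrocyte libraries, 6354 (31.6%) were higher and 6525 (32.4%) lower in CKO at an adjusted p under 0.05, 64% in either direction, and 2922 (14.5%) were at least 2-fold higher and 1946 (9.67%) at least 2-fold lower. Both CKO libraries lay on one side of both WT libraries in 81.1% of genes. A count of called genes in a list is to be read against those shares, and the median log2 fold change of all tested genes was 0.01. Total counts were 33595159 and 29615853 in CKO and 30332304 and 33999602 in WT, and libraries of the same group correlated at 0.9962 or more across genes (a description, since genes are not independent). On the first principal component, with 54.1% of the variance, the CKO libraries lay at 58.7 and 55.0, against −38.4 and −40.1 for the WT libraries. When the libraries were instead scaled to their 15 astrocyte markers, the median of all genes moved by 1.05, and 15478 genes were higher and 874 lower, so that 94.7% of calls were higher in place of 49.3%. Statements below that a gene rose or fell are relative to the whole library, and falls smaller than that shift turn round under this scaling.

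Cell type markers set the frame for everything that follows. The 15 astrocyte markers summed to 15965 and 16223 CPM in CKO libraries, against 35645 and 36028 CPM in WT libraries, and 14 fell and 1 rose, with a median log2 fold change of −1.0 (0.04 under astrocyte-marker scaling, which removes this difference by construction). Slc1a3, the glutamate transporter GLAST, was at 1752 and 1877 CPM in CKO libraries, against 5964 and 6136 CPM in WT libraries, a log2 fold change of −1.74 ± 0.04. Aldh1l1, a folate enzyme used as a pan-astrocyte marker, fell by 1.70, and Gjb6, the gap junction protein connexin 30, fell least, by 0.68. Gfap, the intermediate filament gene that marks reactive astrocytes, was the marker that rose, to 218 and 209 CPM in CKO libraries, against 152 and 153 CPM in WT libraries (0.48 ± 0.04). In bulk RNA, fewer cells of a type and less RNA per cell cannot be told apart.

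Markers of most other cell types of the brain and its vessels stood higher in the CKO libraries. Microglia markers rose in 12 of 13 genes, with a median of 1.81, and summed to 2162 and 2111 CPM in CKO libraries, against 594 and 588 CPM in WT libraries; that was 5.79% of their sum in the CKO microglia libraries and 0.995% in the WT microglia libraries. The complement gene C1qb rose by 3.62 and the purinergic receptor gene P2ry12 by 2.40, while the microglial transcription factor gene Sall1 fell by 0.26, a call that ended without CKO replicate 1 (−0.23) and whose value was 0.03 and 0.04 with offsets for transcript length. Endothelial markers rose in 9 of 10 genes, with a median of 0.87, to sums of 4645 and 4597 CPM in CKO libraries, against 1806 and 1797 CPM in WT libraries, led by Ly6c1 (2.06) and the tight junction gene Cldn5 (1.54). Mural markers rose in 8 of 9 genes, including the smooth muscle genes Acta2 (1.42) and Tagln (1.82), while the pericyte receptor gene Pdgfrb fell by 0.97. The ependymal and choroid list summed to 10625 and 9310 CPM in CKO libraries, against 4693 and 4371 CPM in WT libraries, with 6 of 8 genes higher, and most of that sum was Ttr, the thyroxine carrier of the choroid plexus.

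Several rarer populations, though not erythroid cells, moved in the same direction at low levels. Border macrophage and monocyte markers rose in 6 of 8 genes and summed to 83.5 and 73.2 CPM in CKO libraries, against 22.1 and 21.5 CPM in WT libraries. Fibroblast markers rose in 6 of 7 genes and neutrophil markers in 6 of 7 (4 with a length offset). Among the latter the alarmin gene S100a9 was at 49.7 and 46.0 CPM in CKO libraries, against 11.6 and 13.2 CPM in WT libraries. Lymphocyte markers rose in 5 of 6 tested genes (3 without WT replicate 2 or with a length offset), all under 9 CPM, and the T-cell receptor component Cd3d was at 0.800 and 1.03 CPM in CKO libraries and at 0 in both WT libraries. Neuron markers summed to 99.7 and 99.1 CPM in CKO libraries, against 53.5 and 56.0 CPM in WT libraries. Of their 12 genes 5 were higher, 41.7% against 31.6% over all genes, and 1 lower (3 higher without WT replicate 2, 8 with a length offset). The 5 erythroid genes had sums of 163 and 133 CPM in CKO libraries and 154 and 140 CPM in WT libraries, which overlap, and all 5 were called lower with a length offset.

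**Figure D1:**
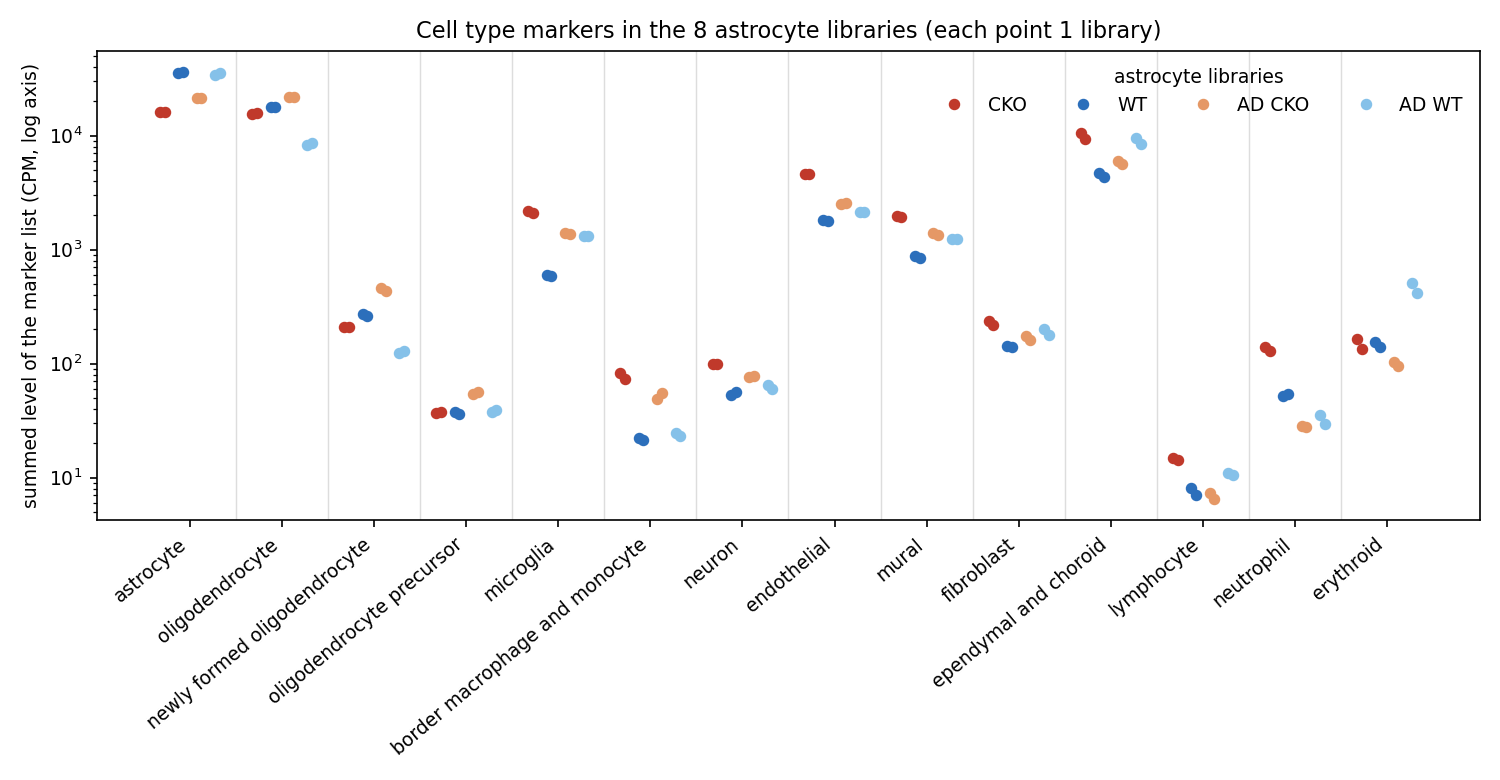
Summed level (CPM, log axis) of 14 cell type marker lists in the 8 astrocyte libraries, each point 1 library, with CKO left of WT and AD CKO left of AD WT. CKO lies below WT for the astrocyte list (15965 and 16223 CPM against 35645 and 36028 CPM; this gap closes by construction under astrocyte-marker scaling) and above it for the microglia, endothelial, mural and ependymal lists.

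The oligodendrocyte lineage did not follow the other non-astrocyte lists. Its 14 mature markers summed to 15438 and 15852 CPM in CKO libraries, against 17681 and 17780 CPM in WT libraries, close to the astrocyte sum in CKO. Of them 4 rose and 8 fell, with a median of −0.18, or 0.87 under astrocyte-marker scaling. Mog, a surface glycoprotein of myelin, rose by 0.17, or stood at −0.11 and −0.05 with the offsets for length described below. The myelin basic protein gene Mbp was at 4365 and 4357 CPM in CKO libraries, against 4829 and 4903 CPM in WT libraries, and fell by 0.16, or stood at 0.14 and −0.95 with those offsets. Opalin, an oligodendrocyte membrane protein, was at 118 and 107 CPM in CKO libraries and 116 and 105 CPM in WT libraries and was not called, while with the principal-length offset it was called lower, at −0.14. The transcription factors of the lineage fell more uniformly, in 9 of 10 genes with a median of −0.73 (0.32 under astrocyte-marker scaling). Myrf, the regulator that switches on myelin genes, was at 28.7 and 27.6 CPM in CKO libraries, against 60.6 and 60.0 CPM in WT libraries, a log2 fold change of −1.10 (−0.05 and not called under astrocyte-marker scaling), and the lineage factor genes Olig2 and Sox10 fell by 1.03 and 0.62. Precursor markers were low in both groups, at summed levels of 36.9 and 37.8 CPM in CKO libraries and 37.8 and 36.2 CPM in WT libraries.

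The largest rises were genes of antibody-secreting cells, of inflamed venules and of chemokines. Of the 12 with the largest fold changes among genes at 5 CPM or more, 4 were immunoglobulin genes, namely Igkv6-15, Ighg1, Ighg2c and Igkc. The kappa constant gene Igkc was at 149 and 140 CPM in CKO libraries, against 5.67 and 4.82 CPM in WT libraries (4.79 ± 0.09). Ighg1, the IgG1 constant gene, was at 9.48 and 10.6 CPM in CKO libraries and at 0 in both WT libraries, at least 102-fold higher when WT is set to 3 counts per library, and Igkv6-15 was likewise at least 141-fold higher. Ighg2c was at 19.4 and 20.9 CPM in CKO libraries, against 0.0348 and 0 CPM in WT libraries. Immunoglobulin segments share near-identical sequence, so the split of reads between them is uncertain.

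Over the 13 immunoglobulin constant genes together, the sums were 283 and 285 CPM in CKO libraries, against 18.6 and 18.8 CPM in WT libraries. All 11 tested ones rose, a count in part fixed by the filter on low counts. Ighg1, at 0 in both WT libraries, passed that filter through the CKO libraries. Among 216 variable segments, 32 and 30 had at least 10 reads in the CKO libraries, against 4 and 3 in the WT libraries. The 2 CKO libraries shared 29 of these segments, and a CKO library shared at most 5 with any library of another group. Only 13 and 13 segments reached that mark in AD WT libraries and 12 and 10 in AD CKO libraries. The overlap between groups was limited in advance by these low counts. Ighm, the IgM heavy chain, and Jchain, the joining chain of secreted antibodies, both named after their values were seen, rose by 3.09 and 3.17. In the microglia libraries the constant genes summed to 578 and 567 CPM in CKO and to 758 and 786 CPM in WT, the opposite order, whereas the variable segments summed to 36.6 and 38.4 CPM in CKO and to 18.2 and 15.3 CPM in WT. Igkc and Ighg2c were called higher in CKO microglia too, by 0.74 and 2.99. They were a small part of the constant gene sum there, with Igkc at 18.2 and 16.4 CPM in CKO and 10.7 and 10.0 CPM in WT.

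Adhesion and chemokine genes came next. Sele, which encodes E-selectin of activated venular endothelium, was at 23.8 and 24.6 CPM in CKO libraries, against 0.139 and 0.124 CPM in WT libraries, a log2 fold change of 7.49 ± 0.24. Ackr1, the atypical chemokine receptor of venules and red cells, was at 218 and 208 CPM in CKO libraries, against 1.25 and 1.24 CPM in WT libraries (7.42 ± 0.10). The neutrophil chemokine gene Cxcl1 was at 121 and 123 CPM in CKO libraries, against 1.64 and 1.33 CPM in WT libraries (6.37 ± 0.11). All 3 were nearly silent in the CKO microglia libraries, with Ackr1 at 0.552 and 0.488 CPM and Sele at 0 and 0.140 CPM there. They moved with the endothelial list, whose sum was 2.56-fold higher in CKO and whose part in them was not tested. Vwf, a general endothelial gene named after its values were seen, rose by 1.58, and Ch25h, which makes 25-hydroxycholesterol, was at 154 and 157 CPM in CKO libraries, against 1.77 and 1.98 CPM in WT libraries (6.37 ± 0.11).

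Another set of large rises was higher still in microglia. Cxcl13, the B-cell chemokine, was at 85.7 and 77.8 CPM in CKO astrocyte libraries, against 0.0696 and 0.618 CPM in WT astrocyte libraries (7.81 ± 0.26), and at 553 and 553 CPM in CKO microglia libraries, against 0.677 and 0.925 CPM in WT microglia libraries. Cst7, an inhibitor of lysosomal proteases, and Ms4a7, a macrophage membrane protein, rose by 5.58 and 4.98 in the astrocyte libraries and stood at 173 and 170 CPM and at 144 and 142 CPM in CKO microglia libraries. Lyz2, the myeloid lysozyme gene, which has a near-identical paralogue and was named after its values were seen, was at 1528 and 1510 CPM in CKO astrocyte libraries, against 64.7 and 67.1 CPM in WT astrocyte libraries. These genes moved with the microglia list, whose part in them was not tested. Cst7 differed from that pattern in microglia, where it was lower in CKO than in WT (332 and 331 CPM).

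**Figure D2:**
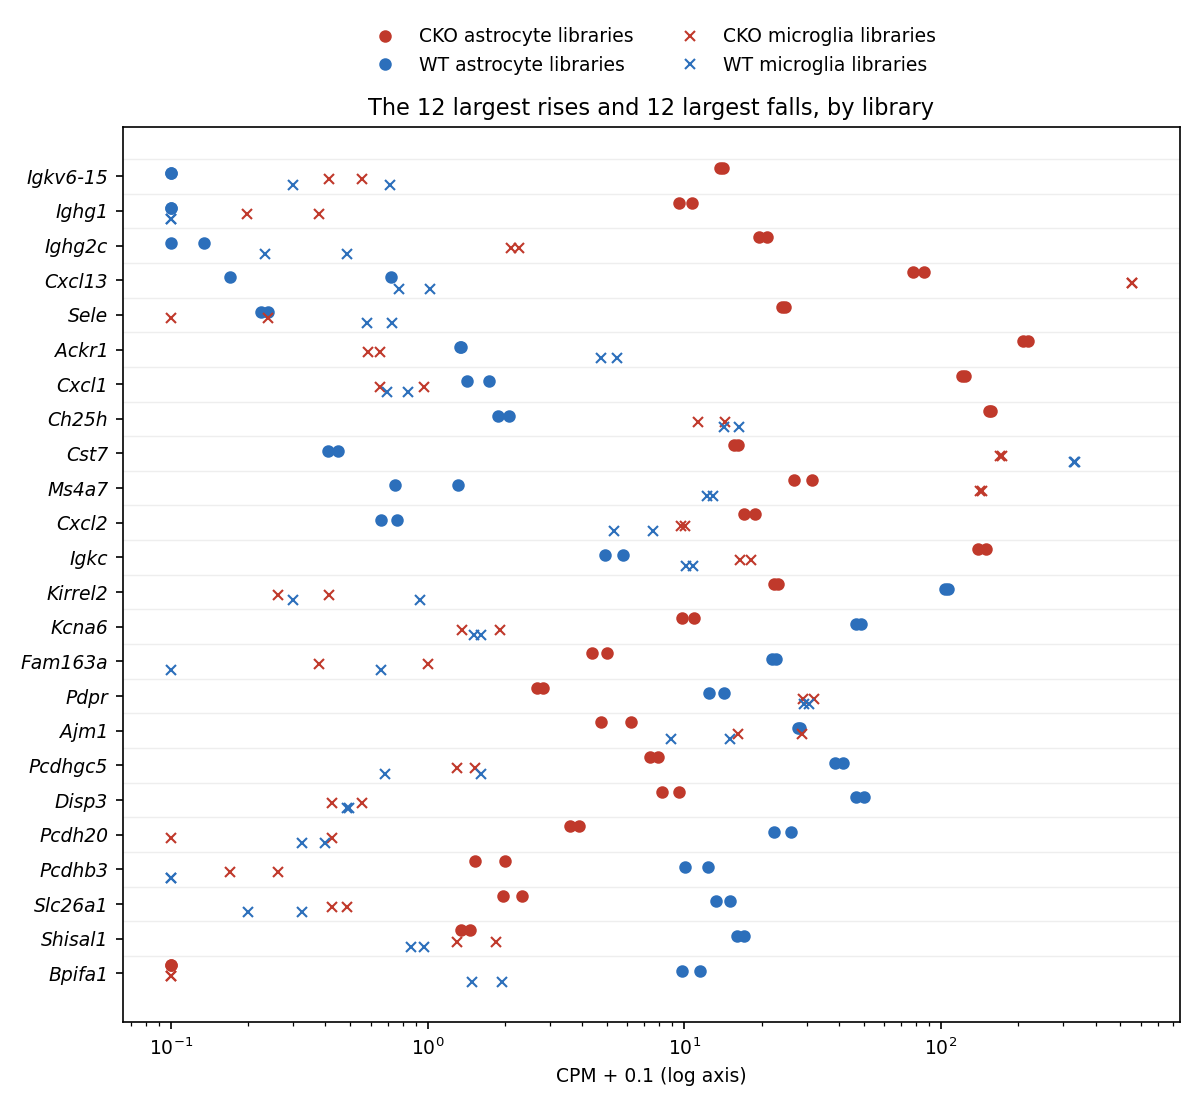
Levels (CPM + 0.1, log axis) of the 12 genes with the largest rises and the 12 with the largest falls, chosen by that difference, in CKO and WT astrocyte libraries (circles) and CKO and WT microglia libraries (crosses). Sele, Ackr1 and Cxcl1 stand far higher in the CKO circles than in any other symbol, while Cxcl13 is highest in the CKO crosses; under astrocyte-marker scaling the falls stay below zero.

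Cytokines, chemokines and NF-kB targets formed the list with the highest median. It rose in 24 of 25 tested genes, with a median of 2.10, and none fell. Icam1, a leukocyte adhesion receptor, was at 195 and 198 CPM in CKO libraries, against 20.1 and 19.8 CPM in WT libraries (3.30 ± 0.06), and was expressed in CKO microglia libraries too, at 309 and 325 CPM. Cxcl2 was at 17.0 and 18.7 CPM in CKO libraries, against 0.661 and 0.557 CPM in WT libraries. The inducers of the reactive state in culture were low but higher in CKO, with Il1a at 9.63 and 9.29 CPM in CKO libraries, against 2.05 and 1.76 CPM in WT libraries, and Tnf at 3.64 and 3.20 CPM in CKO libraries, against 0.661 and 0.309 CPM in WT libraries. The NF-kB inhibitor gene Nfkbia rose by 2.09, whereas the NF-kB subunit genes Nfkb1 and Relb rose by 0.44 and 0.65. Il6 did not pass the filter on low counts.

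The 250 bases before the transcription start are shown for 7 of the genes that rose, because they hold a binding motif for NF-kB or for interferon-activated factors. They were chosen for printing after the matches were seen: 10 genes were looked up and 9 matched, namely these 7 and Ackr1 and Ch25h, which held neither motif; the other is Usp18. The sequences are RefSeq's, build GRCm38.p6, given along the gene's own strand. They lie at chr1:164047984-164048233 (Sele, plus strand), chr5:90890995-90891244 (Cxcl1, plus strand), chr5:90903649-90903898 (Cxcl2, plus strand), chr9:21015690-21015939 (Icam1, plus strand), chr5:92348890-92349139 (Cxcl10, minus strand), chr19:34640639-34640888 (Ifit1, plus strand) and chr19:34583279-34583528 (Ifit3, plus strand). Capitals mark matches, on either strand, to an NF-kB core (GGANNTTCC) or an interferon-stimulated response element (GAAANNGAAA).
Sele: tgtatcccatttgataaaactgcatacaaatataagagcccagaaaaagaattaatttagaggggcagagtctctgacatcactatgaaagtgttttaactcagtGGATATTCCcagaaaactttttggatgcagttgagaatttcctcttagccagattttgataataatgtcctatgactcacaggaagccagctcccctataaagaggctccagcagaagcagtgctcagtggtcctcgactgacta
Cxcl1: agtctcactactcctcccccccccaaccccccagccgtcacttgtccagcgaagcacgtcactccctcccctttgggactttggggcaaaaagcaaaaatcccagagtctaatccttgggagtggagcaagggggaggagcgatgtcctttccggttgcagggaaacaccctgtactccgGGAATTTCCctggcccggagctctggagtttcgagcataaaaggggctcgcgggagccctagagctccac
Cxcl2: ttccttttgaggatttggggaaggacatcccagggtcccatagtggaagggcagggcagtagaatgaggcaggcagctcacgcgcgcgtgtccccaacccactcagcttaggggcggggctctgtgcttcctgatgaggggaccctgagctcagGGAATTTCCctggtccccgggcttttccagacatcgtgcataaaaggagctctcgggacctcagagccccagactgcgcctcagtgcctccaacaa
Icam1: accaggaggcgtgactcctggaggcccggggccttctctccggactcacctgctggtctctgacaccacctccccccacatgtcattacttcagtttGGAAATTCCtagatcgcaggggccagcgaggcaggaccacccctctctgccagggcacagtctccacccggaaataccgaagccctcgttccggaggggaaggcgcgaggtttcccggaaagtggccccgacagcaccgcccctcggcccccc
Cxcl10: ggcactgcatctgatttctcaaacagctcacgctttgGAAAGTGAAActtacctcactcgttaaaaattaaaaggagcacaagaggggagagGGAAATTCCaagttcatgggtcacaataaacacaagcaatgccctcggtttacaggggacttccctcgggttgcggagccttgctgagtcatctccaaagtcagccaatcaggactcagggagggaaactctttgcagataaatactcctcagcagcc
Ifit1: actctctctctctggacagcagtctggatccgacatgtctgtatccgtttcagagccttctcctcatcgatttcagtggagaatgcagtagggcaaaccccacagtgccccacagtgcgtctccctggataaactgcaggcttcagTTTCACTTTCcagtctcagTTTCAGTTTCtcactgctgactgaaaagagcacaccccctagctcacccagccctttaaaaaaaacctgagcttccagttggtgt
Ifit3: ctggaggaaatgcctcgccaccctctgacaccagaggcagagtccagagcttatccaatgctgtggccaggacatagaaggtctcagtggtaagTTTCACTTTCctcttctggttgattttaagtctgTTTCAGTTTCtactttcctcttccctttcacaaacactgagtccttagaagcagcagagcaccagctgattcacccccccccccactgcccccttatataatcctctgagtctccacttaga
The NF-kB core stood once in Sele, Cxcl1, Cxcl2, Icam1 and Cxcl10, at 145, 70, 96, 153 and 158 bases before the start, counted from the first base of the match. It was found in 3.59% of all 32851 mouse promoter windows. In the list of cytokines, chemokines and NF-kB targets, 11 of the 18 members that had a window held it, against 4.12% of all genes. The response element stood once in Cxcl10 and in 2 places each in Ifit1 and Ifit3, overlapping no NF-kB core. It was found in 2.98% of all windows and in 7 of the 15 interferon-list members that had one, against 3.46% of all genes. Each list takes in genes named for that response, so both shares are in part fixed by the choice of members. A match describes the letters only and says nothing of binding in these cells.

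Of the 22 interferon-stimulated genes 21 rose, and the list median was 1.45. Ifit3 was at 134 and 139 CPM in CKO libraries, against 55.7 and 56.8 CPM in WT libraries (1.28 ± 0.05), Ifit1 rose by 1.69, and Bst2, which tethers budding virus, rose by 2.37. Cxcl10, a chemokine gene induced by interferon, was at 58.2 and 53.8 CPM in CKO libraries, against 4.38 and 3.43 CPM in WT libraries (3.85 ± 0.11). The signal transducer gene Stat2 was the 1 that fell, by 0.56. Of the class I antigen presentation list 8 of 12 genes rose and 2 fell (none with a length offset or without CKO replicate 2), with B2m, the class I light chain, at 2172 and 2143 CPM in CKO libraries, against 517 and 505 CPM in WT libraries. The immunoproteasome subunit gene Psmb8 rose by 2.15. The peptide transporter gene Tap1 was at 19.6 and 19.5 CPM in CKO libraries, against 23.4 and 22.1 CPM in WT libraries, and was called lower by 0.22, a call that ended with DESeq2 and without either CKO library or WT replicate 1, and whose value was 0.03 and −0.05 with the 2 offsets for length. H2-D1 and H2-K1 also rose, by 1.59 and 1.09, and are near-identical in part, so that their reads may be split unevenly.

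Reactive astrocyte genes rose in part relative to the whole library. Of the 13 pan-reactive genes 9 rose and none fell, with a median of 0.95 (13 and 1.99 under astrocyte-marker scaling). Lcn2, the siderophore-binding lipocalin, was at 62.1 and 55.8 CPM in CKO libraries, against 2.96 and 3.74 CPM in WT libraries (4.13 ± 0.12), and the intermediate filament gene Vim rose by 1.31. Several defining members were not called, among them Serpina3n, a protease inhibitor, at 27.99 and 27.34 CPM in CKO libraries and 30.8 and 27.7 CPM in WT libraries (called lower, at −0.23, with the longest-transcript offset), the oncostatin receptor gene Osmr and the hyaluronan receptor gene Cd44. Under astrocyte-marker scaling Serpina3n, Osmr and Cd44 were called higher, at 0.97, 0.90 and 1.06. The A1 list rose in 10 of 12 tested genes and fell in 1, and the A2 list rose in 8 of 12 and fell in 3. Many of these members are not made by astrocytes alone: Cd14 and Tm4sf1, which rose by 2.76 and 1.90, are known in myeloid and in endothelial cells. Of 15 tested complement genes 14 rose, and the list median was 1.20. The 3 C1q chains stood with the microglia markers, and C4b and C3 rose by 0.37 and 1.34.

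**Figure D3:**
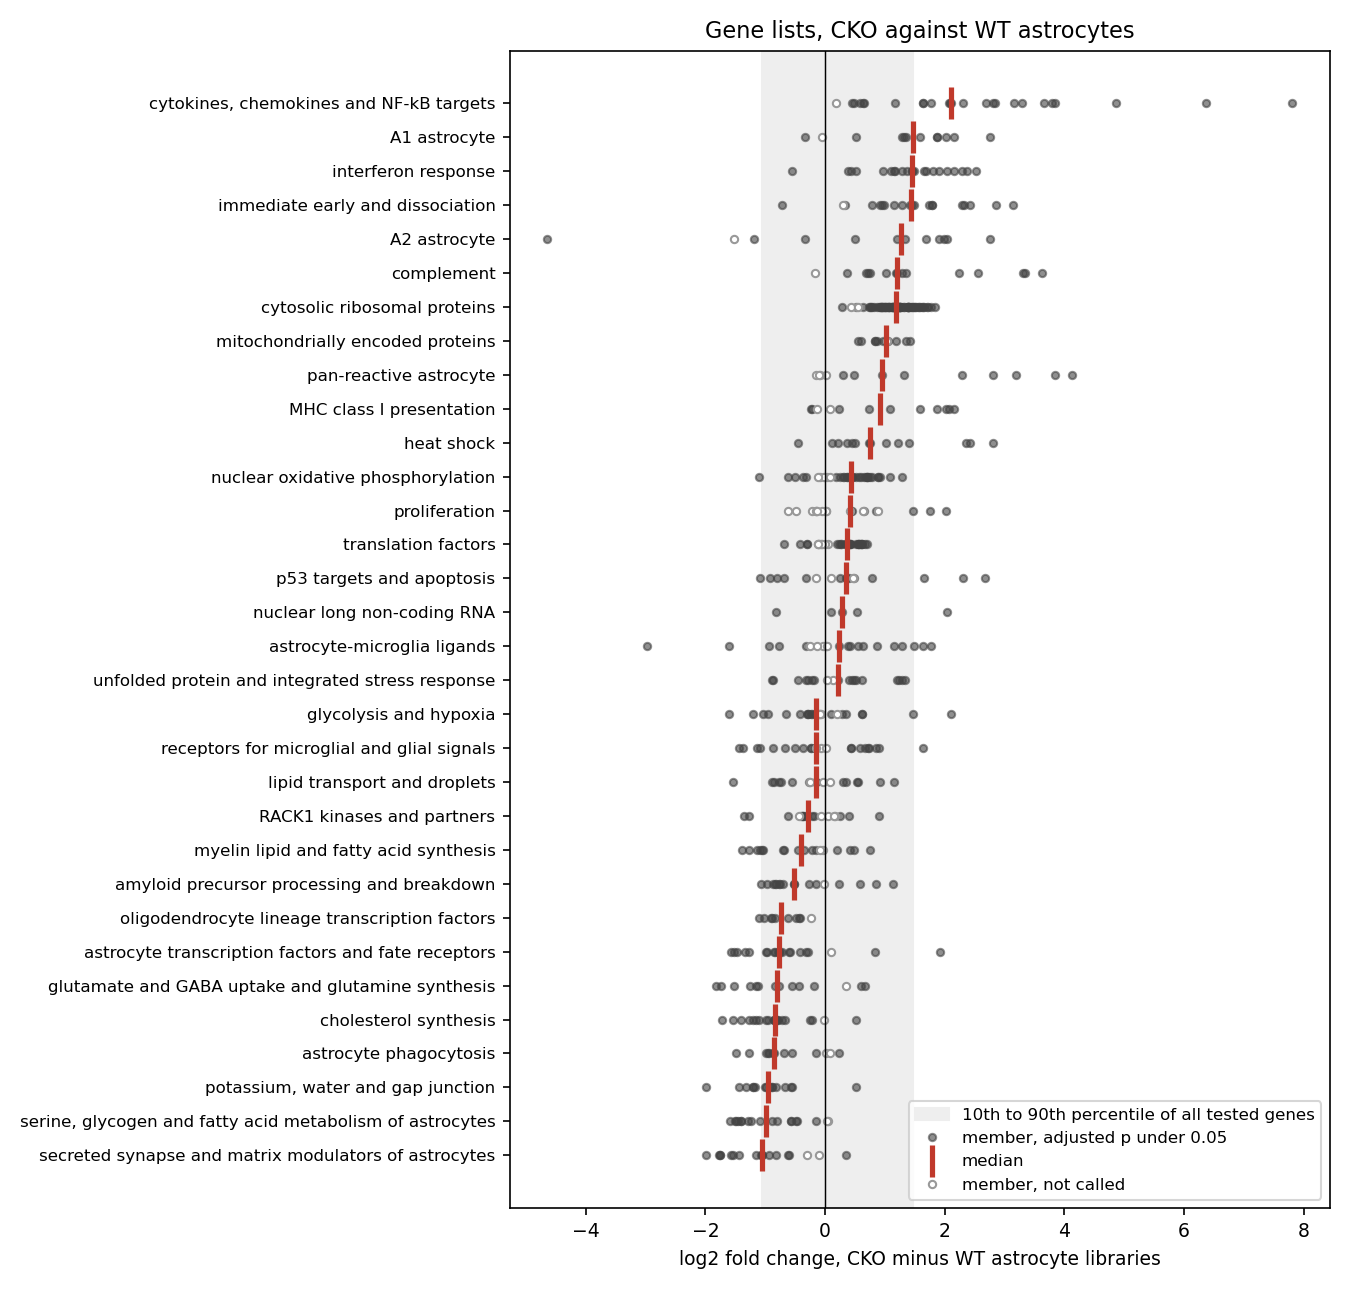
Log2 fold change, CKO minus WT astrocyte libraries, of each member of 32 gene lists (points; filled, adjusted p under 0.05), with the list median (red bar) and the 10th to 90th percentile of all tested genes (grey). Cytokine, interferon and ribosomal lists lie to the right and lists of astrocyte function to the left; the left-hand medians lie between −0.02 and 0.27 for the lists of astrocyte function under astrocyte-marker scaling.

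Genes of astrocyte function fell together. In the list of glutamate and GABA uptake 11 of 14 fell and 2 rose, with a median of −0.81 (0.24 under astrocyte-marker scaling). Grm3, a metabotropic glutamate receptor, was at 137 and 143 CPM in CKO libraries, against 490 and 498 CPM in WT libraries (−1.82). Glul, glutamine synthetase, was at 1109 and 1058 CPM in CKO libraries, against 1259 and 1211 CPM in WT libraries, and fell by 0.19, a call that ended with the offset for the principal transcript's length (−0.06). The spread within the list, from −1.82 to 0.66, is left as it is by a common scaling of the libraries. For potassium, water and gap junctions 15 of 16 fell, with a median of −0.96 (0.09 under that scaling): the chloride channel gene Clcn2 fell by 1.99, the connexin 43 gene Gja1 by 1.43 and the water channel gene Aqp4 by 0.89, and the inward rectifier gene Kcnj10 rose by 0.52, to 166 and 160 CPM in CKO libraries, against 113 and 114 CPM in WT libraries.

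Secreted modulators of synapses and matrix had the lowest median of the pathway lists, −1.06 (−0.02 under astrocyte-marker scaling), with 15 of 18 lower and 1 higher. Lgi4, a secreted adhesion ligand, was at 58.5 and 67.4 CPM in CKO libraries, against 241 and 259 CPM in WT libraries (−1.99), and the matrix proteoglycan gene Bcan was at 716 and 708 CPM in CKO libraries, against 2376 and 2425 CPM in WT libraries (−1.75). Chrdl1, an astrocyte protein that matures synapses, fell by 1.76, and the matricellular gene Sparc rose by 0.34. Of 18 serine, glycogen and fatty acid genes 16 fell, at a list median of −0.99 (0.06 under that scaling), including the glycogen phosphorylase gene Pygb (−1.60) and the acyl-CoA synthetase gene Acsbg1 (−1.5). The serine synthesis gene Psph was at 101 and 91.6 CPM in CKO libraries and 96.2 and 92.1 CPM in WT libraries and was not called, while with the offset for the principal transcript's length it was called lower, at −0.18.

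Astrocyte transcription factors and fate receptors fell in 18 of 21 genes, with a median of −0.78 (0.27 under astrocyte-marker scaling). Lhx2, a homeodomain factor, and Rorb, a nuclear receptor, fell by 1.57 and 1.53, and Sox9, the factor of glial fate, by 0.97. The BMP-responsive inhibitor genes Id1 and Id3 rose, Id1 to 280 and 231 CPM in CKO libraries, against 74.1 and 60.9 CPM in WT libraries. Of 13 phagocytosis genes 10 fell, at a list median of −0.86 (0.19 under that scaling). Among them were the receptor gene Mertk (−1.49) and Mfge8, whose protein bridges phosphatidylserine to integrins (−1.28). The ligand gene Gas6 was at 197 and 202 CPM in CKO libraries and 197 and 197 CPM in WT libraries.

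Cholesterol synthesis fell in 20 of 22 genes and rose in 1, with a median of −0.84 (0.20 under astrocyte-marker scaling). Sqle, squalene epoxidase, was at 138 and 146 CPM in CKO libraries, against 339 and 346 CPM in WT libraries (−1.27). The isomerase gene Ebp was the 1 that rose, by 0.52. In the list of myelin lipid and fatty acid synthesis 12 of 18 fell and 4 rose, the citrate lyase gene Acly falling by 1.28 and the sphingomyelin synthase gene Sgms1 rising by 0.74. Among lipid carriers Clu fell by 0.74, and Apoe, the most abundant, was at 12797 and 11315 CPM in CKO libraries and 15165 and 13599 CPM in WT libraries and was not called (adjusted p = 0.104), although it was called lower with DESeq2 (−0.24), with the 4 CKO and WT libraries alone (−0.25) and with the length offsets (−0.67 and −0.62). Under astrocyte-marker scaling Apoe was instead called higher (0.79).

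Ribosomal protein genes rose almost as one. Of 79 cytosolic ribosomal protein genes 77 rose, with a median of 1.19 and a range of 0.29 to 1.83, and their sum was 8120 and 6728 CPM in CKO libraries, against 3588 and 3311 CPM in WT libraries. Rps6, the substrate of S6 kinase, was at 250 and 226 CPM in CKO libraries, against 106 and 102 CPM in WT libraries (1.20), and Rplp0, of the stalk, rose by 0.93. Rpl41 and Rpl13a were the 2 not called; without CKO replicate 2 both were called higher (0.65 and 0.75), Rpl13a also with DESeq2 and with the 4 libraries alone (0.56 each), and with the length offsets Rpl41 was called lower (−0.37 and −0.42). Many of these genes have near-identical pseudogenes that can share their reads. Of the 13 mitochondrially encoded genes 12 rose, at a median of 1.02, and reads of mitochondrial genes were 4.30% and 4.39% of CKO libraries, against 2.09% and 2.26% of WT libraries. Of 35 nuclear genes of oxidative phosphorylation 25 rose and 5 fell, with a median of 0.43; Ndufa1, a subunit of complex I, rose by 1.29 and Sdha, the flavoprotein of succinate dehydrogenase, fell by 1.10 (−0.06 and not called under astrocyte-marker scaling). Among 34 translation factors 23 rose and 5 fell, Eef1a1, which delivers aminoacyl-tRNA, by 0.62 upward and the initiation factor gene Eif3b by 0.70 downward; with the principal-length offset 9 fell.

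These families are short, and fold changes varied with transcript length. By deciles of the longest annotated transcript, the median log2 fold change was 0.77 in the shortest, of median length 792 bases, and −0.34 in the eighth, of 4453 bases, while the 2 CKO libraries differed by 0.13 in the shortest decile. With an offset that levels this trend, the ribosomal protein median was 0.64 (longest transcript) and 0.52 (principal transcript), with 75 and 74 of 79 still higher. The mitochondrial median was 0.23 and 0.26, with 3 and 5 genes higher, and the nuclear oxidative phosphorylation median turned to −0.08 and −0.11, with 10 higher and 17 lower and with 6 higher and 19 lower. The astrocyte markers, at a median of 4135 bases, kept a median of −0.82 and −0.97. Which of length and gene function the difference followed was not tested.

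**Figure D4:**
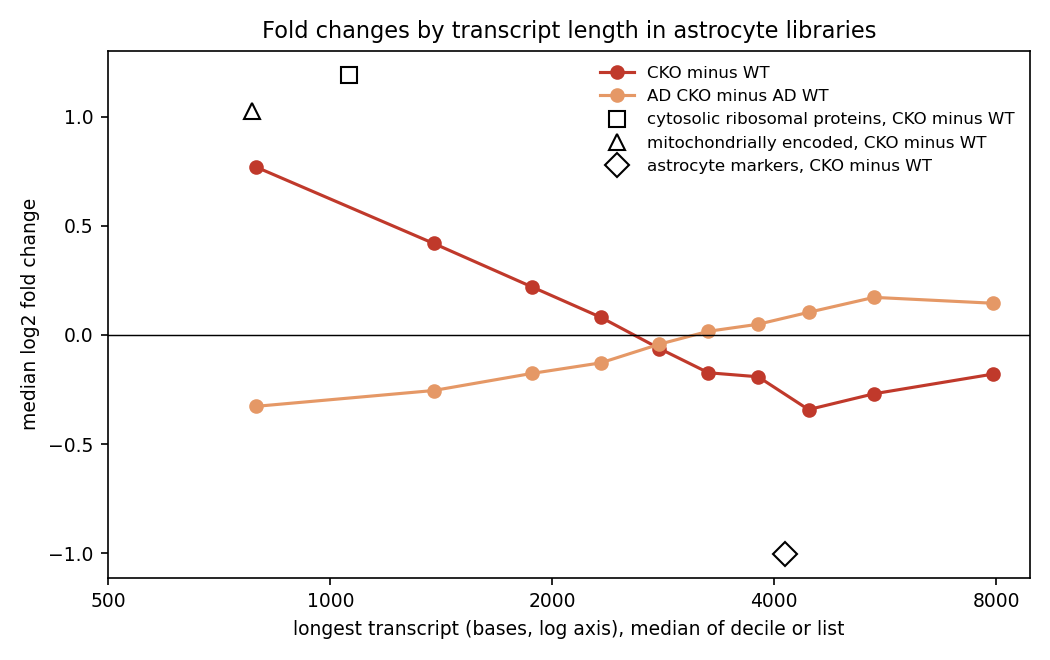
Median log2 fold change by decile of the longest transcript (bases, log axis) for CKO minus WT and AD CKO minus AD WT astrocyte libraries, with 3 list medians of CKO minus WT as open symbols. The CKO minus WT line runs between 0.77 and −0.34 and the AD line between −0.33 and 0.17; with a length offset the ribosomal, mitochondrial and astrocyte symbols stand at 0.64, 0.23 and −0.82, and under astrocyte-marker scaling all CKO minus WT values stand about 1.05 higher.

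Early response genes and chaperones were higher in CKO. Immediate early and dissociation genes, which also rise while tissue is being taken apart, rose in 18 of 20 tested members, and their median was 1.44. Nr4a1, an orphan nuclear receptor induced within minutes, was at 211 and 211 CPM in CKO libraries, against 39.6 and 38.7 CPM in WT libraries (2.43 ± 0.06), and Ier3 rose by 2.86, while the synaptic gene Arc fell by 0.72. Heat shock genes rose in 13 of 14 cases, with Hspb1 at 518 and 443 CPM in CKO libraries, against 70.5 and 67.5 CPM in WT libraries; the near-identical pair Hspa1a and Hspa1b rose by 2.36 and 2.43. The part of tissue handling in these values was not tested, and the labels give no handling times. The unfolded protein and integrated stress list was split, with 10 of 19 higher (6 with the longest-transcript offset) and 7 lower, Asns, asparagine synthetase, by 1.20 upward and the chaperone gene Hspa5 by 0.18 downward, or at 0.04 and 0.11 with the offsets for length. Of p53 targets and apoptosis genes 9 of 17 rose (5 without CKO replicate 1) and 5 fell, and Cdkn1a, the p21 cell cycle inhibitor, was at 147 and 126 CPM in CKO libraries, against 27.9 and 27.0 CPM in WT libraries (2.31 ± 0.07). Cdkn1a was at 437 and 478 CPM in CKO microglia libraries, against 34.4 and 30.9 CPM in WT microglia libraries. Proliferation genes rose in 7 of 19 cases, 36.8% against 31.6% over all genes.

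Signals between microglia and astrocytes did not move one way. Of 21 tested ligands 11 rose and 5 fell. Lif, a cytokine of the interleukin 6 family, was at 0.563 and 0.799 CPM in CKO libraries, against 5.29 and 5.41 CPM in WT libraries (−2.98), and the vascular growth factor gene Vegfa was at 131 and 135 CPM in CKO libraries, against 391.7 and 416 CPM in WT libraries (−1.61). Tgfb1 and Il34, a ligand of the CSF1 receptor, rose by 1.28 and 1.14, and Il33, an alarmin, fell by 0.31. Of 23 receptors 9 rose and 11 fell, the interleukin 1 receptor gene Il1r1 by 1.64 upward and the growth factor receptor gene Egfr by 1.45 downward. Of 17 genes of amyloid precursor processing and breakdown 12 fell and 4 rose (2 with the longest-transcript offset), with a median of −0.52 (0.52 under astrocyte-marker scaling), including Ide, the insulin-degrading enzyme, by 1.07 (−0.02 and not called under that scaling). App itself fell by 0.16, or stood at 0.03 and 0.06 with the offsets for length. The kinases and other partners that RACK1 is known to bind fell in 10 of 18 cases and rose in 3, or fell in 4 and 5 with the length offsets, with Src at 18.3 and 16.1 CPM in CKO libraries, against 43.1 and 44.8 CPM in WT libraries (−1.35).

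The 12 largest falls included adhesion, channel and transporter genes. Bpifa1, a secreted protein known from airway epithelium, was at 0 in both CKO libraries, against 11.5 and 9.71 CPM in the WT libraries, so at least 112-fold lower with CKO set to 3 counts per library, and it was at 0 in all 4 AD astrocyte libraries. It was also present in the WT microglia libraries, at 1.39 and 1.85 CPM, and at 0 in the CKO microglia libraries. Shisal1 was at 1.24 and 1.37 CPM in CKO libraries, against 16.0 and 17.0 CPM in WT libraries (−3.66 ± 0.15). Kirrel2, an adhesion molecule, was at 22.3 and 23.1 CPM in CKO libraries, against 107 and 104 CPM in WT libraries (−2.21 ± 0.06), and the voltage-gated potassium channel gene Kcna6 was at 10.8 and 9.69 CPM in CKO libraries, against 48.8 and 46.7 CPM in WT libraries (−2.22). The protocadherins Pcdh20, Pcdhb3 and Pcdhgc5 fell by 2.73, 2.73 and 2.41, the last 2 from gene clusters whose members share sequence. The sulfate transporter gene Slc26a1 fell by 2.79, and Disp3, Ajm1, Pdpr and Fam163a fell by between 2.28 and 2.46. All but Ajm1 and Pdpr of these 12 stood under 2 CPM in every microglia library of CKO and WT.

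The same deletion in the AD model gave a different picture. At an adjusted p under 0.05, 5058 genes (25.1%) were higher and 5425 (27%) lower in AD CKO than in AD WT, and for 11630 genes (57.8%) the deletion effect differed between the backgrounds (interaction, AD model minus no AD model). Of the genes higher in CKO than in WT, 31.4% were also higher and 26.5% lower in AD CKO than in AD WT, and of those lower in CKO 34.3% were also lower and 26.1% higher. Across the 20116 genes the log2 fold changes correlated at r = 0.088, a description across genes, which are not independent replicates.

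Interferon genes had medians of 1.45 for CKO minus WT and 1.43 for AD CKO minus AD WT, where all 22 rose, but their single values differed between the backgrounds. The interaction was called higher for 8 and lower for 8 of the 22, with Stat2 at 2.18, Ifit3 at 0.46 and Bst2 at −1.26. Cxcl10 was at 105 and 102 CPM in AD CKO libraries, against 9.71 and 8.10 CPM in AD WT libraries, and its interaction was not called (−0.31, adjusted p = 0.0753). Under astrocyte-marker scaling the interferon interaction was called higher for 4 and lower for 12 of the 22. The AD median of the interferon list was then 1.98, below its median for CKO minus WT. Ribosomal proteins had a median of −0.34, with 39 of 79 lower in AD CKO, but 0.21 with 16 higher and 1 lower under astrocyte-marker scaling, and −0.11 and −0.06 with the length offsets. Their interaction was called lower for 77 genes as reported, and for 73 to 78 under those alternatives. The oligodendrocyte markers rose in all 14 genes in AD CKO, with a median of 0.70, to sums of 21784 and 21666 CPM in AD CKO libraries, against 8298 and 8527 CPM in AD WT libraries. The cytokine list had a median of 0.69 there, against 2.10 without the AD model, and immediate early genes 0.09, against 1.44. Under astrocyte-marker scaling the AD medians were 1.24 for the cytokine list, 0.63 for immediate early genes and 1.25 for oligodendrocyte markers. Sele was at 2.84 and 2.58 CPM in AD CKO libraries, against 0.205 and 0.155 CPM in AD WT libraries, and Ackr1 at 18.9 and 19.4 CPM in AD CKO libraries, against 9.24 and 8.20 CPM in AD WT libraries. The astrocyte list fell in 14 of 15 genes in both, by medians of −1.0 and −0.61, and Gfap rose in both. Those 2 falls close under astrocyte-marker scaling by construction.

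**Figure D5:**
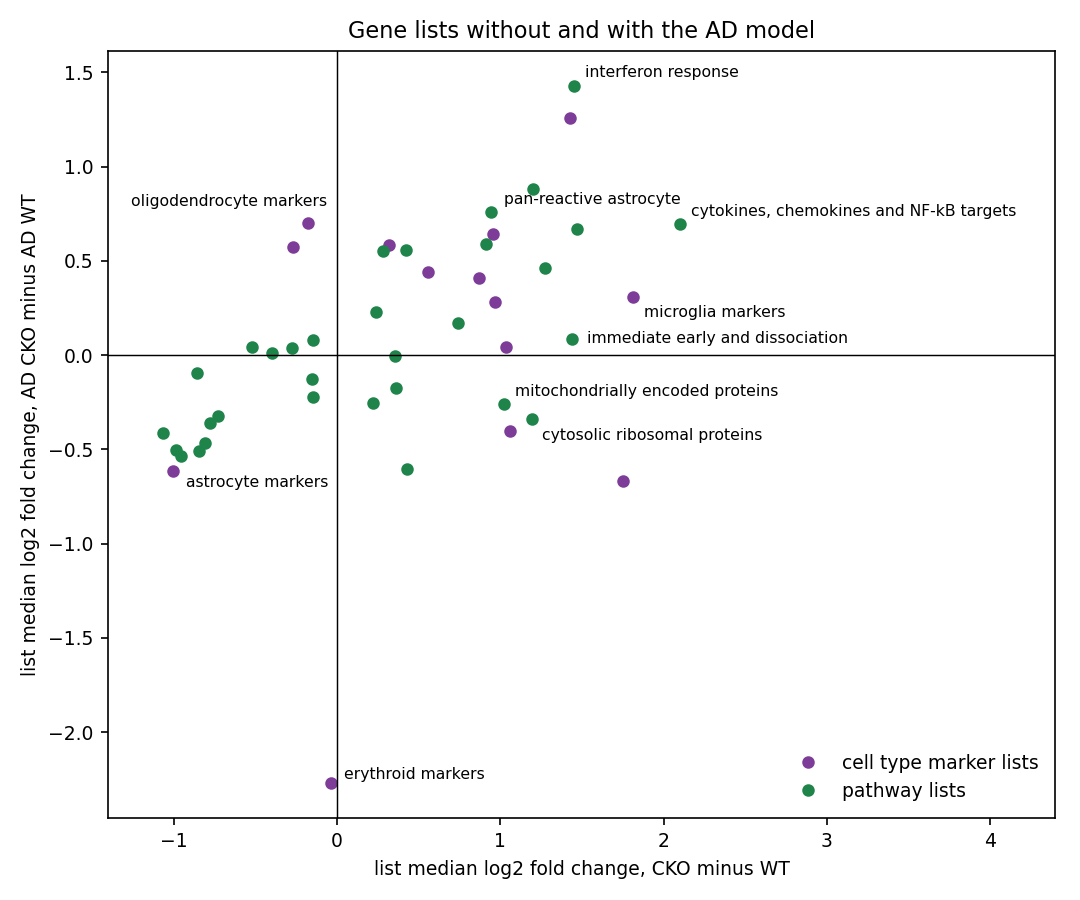
Median log2 fold change of 46 gene lists (points) for CKO minus WT (horizontal) and AD CKO minus AD WT astrocyte libraries (vertical). Interferon genes lie near 1.4 on both axes, and ribosomal proteins at 1.19 and −0.34 (the second 0.21 under astrocyte-marker scaling); under that scaling the horizontal values stand about 1.05 higher and the vertical values about 0.54 higher, so that the lists of astrocyte function left of zero move to between −0.02 and 0.27.

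The same genotypes were also compared in microglia. Over 16161 genes tested in both cell types the 2 log2 fold changes, CKO minus WT, correlated at r = 0.092. Of 2049 genes at least 2-fold higher in CKO astrocyte libraries 259 were also at least 2-fold higher in CKO microglia libraries, which is 12.6% of the astrocyte set and 36.1% of the 717 in microglia, where 4.44% of all genes met that mark. Of 1428 genes at least 2-fold lower in astrocyte libraries 53 were so in microglia, which is 3.71% of them and 11.8% of the 449 in microglia, where 2.78% of all genes did. Of the 2049, 58.7% stood at a higher CPM in the CKO astrocyte libraries than in the CKO microglia libraries. With TMM scaling, the one scaling run there, 15.9% of the 17318 genes tested in microglia were called lower and 17.7% higher in CKO. Microglia markers fell in 11 of 13 genes and ribosomal proteins in 45 of 79 genes in CKO microglia, while both lists rose in the CKO astrocyte libraries. Interferon genes rose in 21 of 22 in both.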

How the data were processed

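Bulk RNA-seq (TRIzol RNA, 10 ng a library, SMART-Seq amplification, 150-base read pairs, per the labels' protocols) was analysed from the gene table of 8 astrocyte libraries, with the table of 8 microglia libraries for levels and an equivalent fit. The values are expected counts deposited by the authors, not scaled to a common total, and 27.5% to 32.9% of non-zero values are fractional. The submitters' processing notes name fastp, HISAT2, StringTie and mm10; versions, the counting step and strand use are not given in the sources used here, so antisense and near-identical genes may share reads.

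Counts were rounded. Genes that passed filterByExpr (20116 of 56980 features; 17318 in microglia) were scaled by TMM over all 8 libraries and fitted with edgeR 4.0.16 (R 4.3.3, quasi-likelihood, two-sided), with 4 groups of 2 libraries sharing 1 estimate of spread and Benjamini-Hochberg adjustment over all genes. A gene was called at an adjusted p under 0.05. CPM use the TMM-scaled totals. Lengths and coordinates come from GENCODE M21 on mm10, matched by ID for 52073 features. Replicates differed beyond counting noise (chi-square per degree of freedom 3.76 to 6.42). Each library was counted as its own sample, although that spread may be technical. Totals and floors (3 counts per library) cover counting error only. The scripts were tested on simulated data. Alternatives were RLE factors, astrocyte-marker scaling, DESeq2 1.42.0, limma-voom (limma 3.58.1), other filters, the 4 CKO and WT libraries alone, a replicate block, each CKO and WT library left out in turn, and loess offsets for transcript length; the offset for the principal transcript was added after seeing the data. Same-numbered libraries deviated together only weakly (correlations of 0.03 to 0.15, all positive). Only that of CKO with AD WT was over 0.1, at 0.149. No label says the numbers mark a shared animal or day, so same-numbered libraries were not treated as pairs.

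The comparison and the 46 gene lists were chosen with earlier results of these data known. Named genes are Rack1, the 12 largest rises and 12 largest falls among called genes with a mean of at least 5 CPM, groups that do not overlap and no clone-like name, up to 5 members with the smallest p of each list, and the astrocyte, oligodendrocyte and microglia markers, of which some are given only by counts; a few genes that the rule names are not reported here. Chosen after their values were seen were App, Arc, C3, C4b, Cd44, Ebp, Gas6, Glul, Hspa5, Hspb1, Id1, Id3, Il1a, Il1r1, Il33, Il34, Kcnj10, Nfkb1, Nfkbia, Osmr, Pdgfrb, Psph, Relb, Rpl13a, Rpl41, Serpina3n, Sgms1, Sparc, Stat2, Tap1, Tnf and Ttr, besides those marked so in the text.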

Additional observations from a re-analysis of the deposited data

Results flagged for a closer look

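The effect of the microglial deletion differed between mice with and without the AD model in 11630 genes, by the interaction term of edgeR's quasi-likelihood test with Benjamini-Hochberg adjustment. The values below are interactions on the log2 scale, AD model minus no AD model, for Rack1 and for those of the 24 genes with the largest rises and falls without the AD model whose interaction was called. Since these 24 were chosen for an extreme CKO minus WT value, which enters the interaction, an interaction against that value is in part fixed by the choice. Each of the 21 gene interactions kept its sign and its call under all 14 settings that could give one.

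Rack1 stood at −1.21, with a log2 fold change of −0.47 for AD CKO minus AD WT and 0.74 for CKO minus WT. Among immunoglobulin genes Ighg2c was at −12.93, a fitted value that depends on libraries near 0, and Igkc at −5.43. Among adhesion and chemokine genes Sele was at −3.61, Ackr1 at −6.28, Cxcl1 at −5.73, Cxcl2 at −3.12 and Ch25h, the 25-hydroxycholesterol enzyme, at −5.97. The myeloid genes Cst7 and Ms4a7 were at −6.32 and −2.82. Among the falls, Shisal1 was at 3.85, Kcna6 at 3.37, Pcdhb3 at 2.88, Pdpr at 2.83, Fam163a at 2.38, Slc26a1 at 2.30, Pcdhgc5 at 2.28, Pcdh20 at 2.11, Ajm1 at 2.08, Disp3 at 2.03 and Kirrel2 at 1.06. Interactions of Igkv6-15, Ighg1, Cxcl13 and Bpifa1 were not called. For Igkv6-15, Ighg1 and Bpifa1 that says nothing of a difference, since groups with 0 reads gave standard errors of 14843 or more. Igkv6-15 was at 0.0279 and 0 CPM in AD CKO libraries and at 0 in both AD WT libraries.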

How the results depend on the processing

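Scaling to the astrocyte markers gave 15478 genes higher and 874 lower in CKO, against 6354 and 6525 as reported, because it moves every value by about 1.05. No other alternative moved these counts or the interaction count by over 1.5 times. Leaving out a library gave 5460 to 5861 higher, 5919 to 6171 lower, 10697 to 11242 interactions and a Rack1 value of 0.69 to 0.78. DESeq2 called 5795 higher and 5949 lower. With the replicate block 6539 were higher, 6718 lower and 12128 had an interaction, and Rack1 stood at 0.74; shared numbers were not taken as pairing the libraries. Of the named genes the block changed the call of Apoe (−0.26), Rpl13a (0.54) and Rpl41 (0.42), each then called. Rack1 was 1.78 under astrocyte-marker scaling.

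Of 129 genes named besides Rack1, 99 kept their call under every alternative. Under astrocyte-marker scaling the sign turned for Apoe (0.79), App (0.89), Aqp4 (0.16), Arc (0.33), Clu (0.31), Eif3b (0.35), Gjb6 (0.37), Glul (0.86), Hspa5 (0.87), Il33 (0.73), Mbp (0.89), Olig2 (0.019), Osmr (0.90), Pdgfrb (0.074), Sall1 (0.79), Serpina3n (0.97), Sox10 (0.42), Sox9 (0.081), Stat2 (0.49) and Tap1 (0.82). The calls of Myrf (−0.05), Ide (−0.02) and Sdha (−0.06) ended under it. With the longest-transcript offset it turned for App (0.025), Hspa5 (0.039), Mbp (0.14), Mog (−0.11), Rpl41 (−0.37), Sall1 (0.031) and Tap1 (0.029). With the principal-transcript offset it turned for App (0.060), Hspa5 (0.11), Mog (−0.055), Opalin (−0.14), Psph (−0.18), Rpl41 (−0.42) and Sall1 (0.035). The causes were not tested. With 2 libraries a group, a left-out library leaves a lone sample assumed to vary like the other groups.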
